A study of Danio rerio with 8 samples.

Results

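Amino acid transporters of 6 solute carrier families were followed in whole zebrafish embryos (Danio rerio) that had developed with or without an inhibitor of cysteine proteases. The rule that picked the genes uses names and a minimum level, not the difference between groups, and it was set with earlier results of these data known. It takes all entries of the deposited count table whose names begin with slc1, slc6, slc7, slc36, slc38 or slc43 followed by a member number, without slc7a11 and slc7a5. Of 75 such names, 63 had a mean of at least 0.5 CPM (read counts put on one scale of library size) over the 8 libraries and are described here, out of 36109 entries in the table. Of these, 62 carry the name of a transporter. The remaining entry, slc7a6os, is named for lying opposite slc7a6 and is not a transporter gene; in mammals its product helps to bring RNA polymerase II into the nucleus.

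All embryos were wild type, of the AB strain, and had a nicked chorion. They were kept as 7 per well in the medium labelled AFW-PTU, from 1 to 24 hours after fertilization (hpf). One group (E64d) received E64d at 3 µM, which enters cells and blocks cysteine proteases such as cathepsins and calpains, and the other (DMSO) received the solvent dimethyl sulfoxide at 0.5%. The labels state the same solvent level for both groups, whereas diluting the 10 mM stock to 3 µM would by itself carry 0.03% DMSO. Each of the 2 groups had 4 libraries, each from a pool of 7 embryos, so SDs below are the spread between pools.

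Amino acids cannot cross membranes unaided, and each of these families carries a different part of the supply. The slc1 proteins take up glutamate and aspartate or exchange neutral amino acids, the slc6 proteins couple neurotransmitters and neutral amino acids to sodium, and the slc7 proteins carry cationic amino acids or act as light chains that need a heavy chain of the slc3 family to reach the membrane. The slc36 family includes carriers coupled to protons, and the slc38 proteins carry glutamine and other small neutral amino acids with sodium. The slc43a1 and slc43a2 proteins pass large neutral amino acids such as leucine down their gradient. In a fish embryo these substrates come from yolk proteins that are broken down by proteases, cathepsins among them. These roles are mostly known from mammals.

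The libraries held 29422983 to 37309883 counts. DMSO replicate 2 had the lowest share of mitochondrial counts, 0.847%. DMSO replicate 3 held 1.27%, and the remaining libraries held 1.72% to 1.97%. DMSO replicate 2 was also the lowest of the DMSO libraries in 25 of the 63 members. Markers of 12 cell and tissue types were all present, with 63 of 64 listed markers matched and none of them at 0 in any library. Of these markers 1 was higher and 6 were lower in E64d by the test given below. That test called 2.28% of all tested genes higher and 3.85% lower. Of the lower markers 4 came from the list of 7 markers of the yolk syncytial layer (mttp, rbp4, afp4 and apoc1), which is 57.1% of it. The rest of that list, apoa4b.1, apobb.1 and ttr, did not pass. The summed level of that list was 10959 to 13380 CPM in DMSO and 8104 to 10605 CPM in E64d, without overlap. Scaled by library totals alone the groups overlap, since DMSO replicate 2 then lies within the E64d range. In bulk RNA of whole embryos, fewer cells of a type and less RNA per cell cannot be told apart. The part that a change in the yolk syncytial layer has in the results below was not tested.

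Most amino acid transporter genes did not pass the test between E64d and DMSO, and a small number fell or rose. The clearest falls were those of slc43a2a, slc38a7 and slc7a8a, which carry leucine-like amino acids or glutamine, and the steepest rise was that of slc6a15. By edgeR's quasi-likelihood test, adjusted over all 22163 genes tested at an adjusted p under 0.05, 5 of the 63 members were lower in E64d (7.94%, where 3.85% of all tested genes were lower) and 2 were higher (3.17%, where 2.28% of all were higher). In both directions together this was 11.1% of the members and 6.13% of all genes. Leaving out slc7a6os, which is not a transporter gene, 4 of the 62 transporter genes were lower and 2 were higher. Among all tested genes that also reached a mean of 0.5 CPM, 6.51% were called, 4.1% lower and 2.41% higher. The median log2 fold change (E64d over DMSO) was 0.13 over the members and 0.01 over all tested genes, and 44 members had a value above 0 and 19 below. Scaling by library totals alone gave 5 higher and 4 lower members in place of 2 and 5, and a median of 0.21. That scaling also moved the median over all tested genes, to 0.10, with 803 genes called higher and 498 lower.

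**Figure D1:**
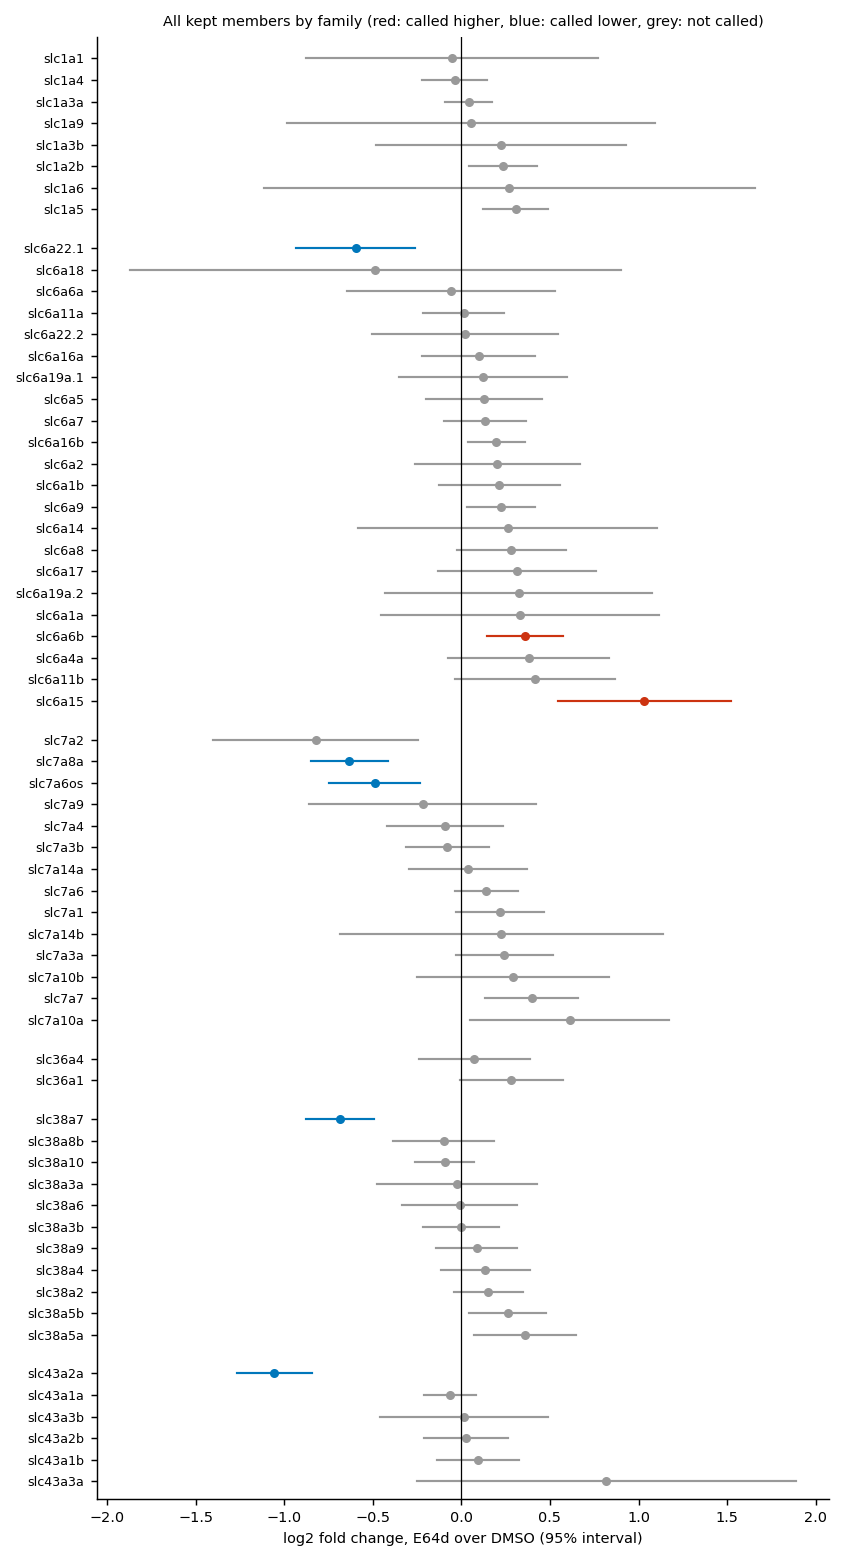
Log2 fold change of each of the 63 members (horizontal axis, E64d over DMSO) with its 95% interval, grouped by family on the vertical axis; red marks the 2 members called higher, blue the 5 called lower and grey the others. Long bars belong to genes with few reads, and slc43a2a, slc38a7 and slc7a8a lie well to the left of 0.

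Replicate numbers paired the libraries (the check is given with the processing), and a fit with the number as a block called 6 members higher and 6 lower. These were 9.52% in each direction, where the same fit called 4.69% of all genes higher and 6.95% lower. The 5 members added by the block were slc1a5, slc6a8, slc38a5a and slc7a7, all higher, and slc7a2, lower. In 12 members the groups did not overlap, 6 in each direction (9.52%). Of all tested genes, 14.4% had groups without overlap, made up of 5.86% that were higher and 8.55% that were lower in E64d.

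Among the transporters of large neutral amino acids slc43a2a fell, while its copy slc43a2b and both slc43a1 genes did not pass the test. slc43a2a encodes a carrier of the LAT4 type, which in mammals lets leucine, isoleucine, phenylalanine and methionine pass without sodium. It stood at 218, 157, 169.9 and 196 CPM in DMSO replicates 1 to 4 and at 91.7, 83.4, 88.9 and 92.3 CPM in E64d replicates 1 to 4. The E64d pools lay close together, and each was far below the lowest DMSO pool. The mean fell from 185 ± 27.4 to 89.1 ± 4.08 CPM (SD, n = 4), a log2 fold change of −1.06 ± 0.10 (SE; adjusted p = 2.63e-05 by edgeR). It was lower under all 16 alternative settings, with log2 fold changes of −1.13 to −0.96.

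slc43a2b, the other copy, had 436, 385, 393 and 355 CPM in DMSO and 472, 429, 318 and 379 CPM in E64d. Its groups overlapped, with the lowest and the highest library both treated, and its 95% interval reached from −0.21 to 0.26 on the log2 scale (adjusted p = 0.932 by edgeR). Within a library, the log2 ratio of slc43a2a to slc43a2b fell from −1.09 ± 0.20 in DMSO to −2.14 ± 0.26 in E64d (SD, n = 4). No E64d library overlapped a DMSO library in that ratio (2-sided exact permutation test, p = 0.0286, the smallest that 4 against 4 can give; adjusted p = 0.162 over 17 gene pairs). The pairs slc3a2a/slc3a2b and slc7a6/slc7a6os, added to the 17 by choice, also gave that smallest p. The adjusted p is lower for their presence. slc43a1a stood at 85.8 ± 2.29 and 81.9 ± 4.35 CPM (log2 fold change −0.07 ± 0.07, adjusted p = 0.656) and was among the members with the least spread between pools. slc43a1b stood at 35.3 ± 5.26 and 37.7 ± 2.14 CPM.

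The slc43a3 genes, whose mammalian relative carries purine bases and not amino acids, did not pass. slc43a3b stood at 6.59 ± 1.39 and 6.65 ± 1.88 CPM. slc43a3a was near the floor of 0.5 CPM, with 0.43 to 0.525 CPM in DMSO and 0.227, 1.11, 1.09 and 0.952 CPM in E64d. Treated replicate 1 was the lowest library and the other treated libraries were the highest, and the 95% interval of its log2 fold change was −0.25 to 1.89.

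**Figure D2:**
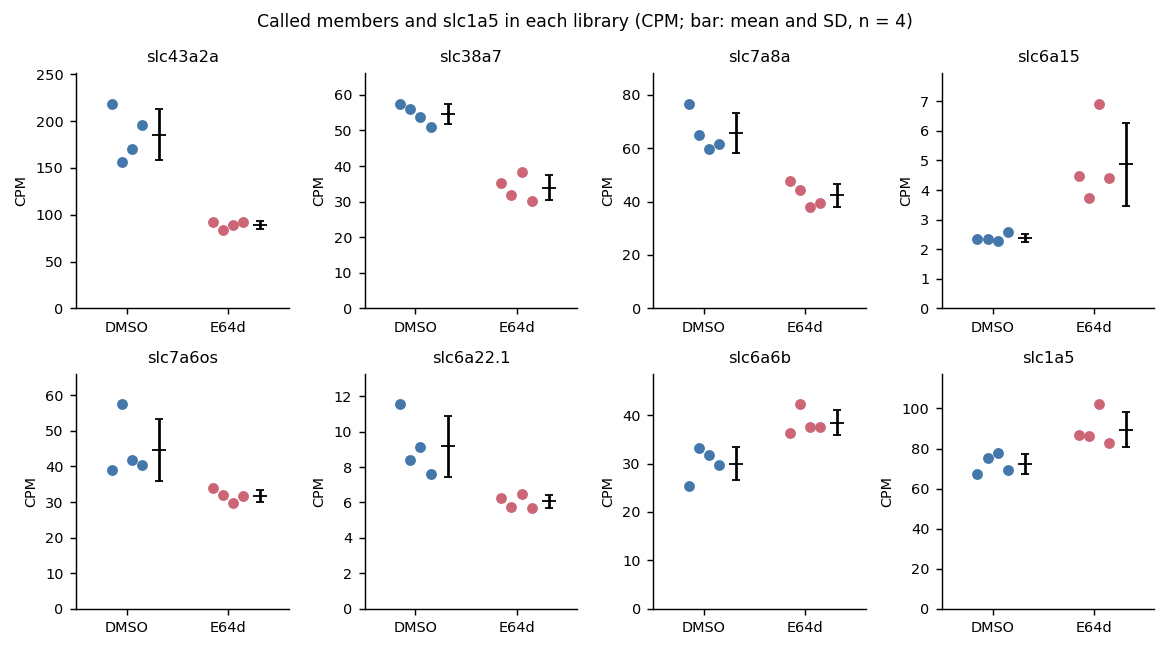
CPM in each library (vertical axis, from 0) for the 7 called members and slc1a5, with DMSO libraries in blue and E64d libraries in red; the black bar is the mean ± SD of 4 libraries. The groups do not overlap in any of the 8 panels, and the E64d values of slc43a2a all lie near 90 CPM, between 83.4 and 92.3.

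Among the light chains kept as members, slc7a8a fell and no other passed the test. The heavy chain slc3a2a fell as well, and its copy slc3a2b did not. slc7a8 encodes LAT2, an exchanger of large and small neutral amino acids that in mammals is held at the membrane by the slc3a2 heavy chain. slc7a8a stood at 76.5, 65.0, 59.5 and 61.7 CPM in DMSO and at 47.6, 44.3, 37.97 and 39.5 CPM in E64d. All treated pools were below all controls. Its mean went from 65.7 ± 7.56 to 42.3 ± 4.40 CPM (log2 fold change −0.63 ± 0.10, adjusted p = 0.00218 by edgeR), and it was lower under all 16 alternative settings (adjusted p up to 0.0138). Its copy slc7a8b lay just under the level needed to be kept, with a mean of 0.479 CPM.

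The heavy chain slc3a2a, not itself a member, stood at 149, 207, 161 and 126 CPM in DMSO and 62.7, 69.2, 69.5 and 63.4 CPM in E64d. The other heavy chain copy, slc3a2b, had 24.1, 33.9, 29.8 and 23.4 CPM in DMSO and 42.9, 34.5, 37.8 and 36.1 CPM in E64d. Every treated pool was below the controls for slc3a2a and above them for slc3a2b. The log2 fold change of slc3a2b was 0.44 ± 0.12 (adjusted p = 0.0534 by edgeR, and 0.0223 with the replicate block). Without DMSO replicate 2 the adjusted p was 0.0093, and without any other single library the gene did not pass (0.0733 to 0.144). It did not pass with limma-voom (0.0503) or DESeq2's size factors (0.057) either, and it passed with DESeq2 (0.0132) and library totals (0.0157). The log2 ratio of slc3a2a to slc3a2b fell from 2.51 ± 0.11 to 0.80 ± 0.19 (2-sided exact permutation test, p = 0.0286; adjusted p = 0.162 over 17 pairs).

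The other light chains had values on both sides of 0. slc7a7, which in mammals exports cationic amino acids in exchange for neutral ones, stood at 12.9, 11.0, 12.2 and 12.0 CPM in DMSO and at 19.2, 14.6, 15.4 and 14.2 CPM in E64d. Its groups did not overlap, and its log2 fold change of 0.40 ± 0.12 missed the threshold (adjusted p = 0.0771 by edgeR), whereas the block gave an adjusted p of 0.034. Its near relative slc7a6 stood at 52.5 ± 4.12 and 57.9 ± 3.57 CPM (0.14 ± 0.08, adjusted p = 0.377). slc7a10a, a copy of an exchanger of small neutral amino acids, had few reads (1.63 ± 0.313 and 2.48 ± 0.469 CPM) and groups that did not overlap (adjusted p = 0.207). slc7a10b and slc7a9, the light chain that pairs with slc3a1 in the kidney of mammals, stood between 1.88 and 2.94 CPM on average and did not pass.

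slc7a6os stood at 38.9, 57.5, 41.7 and 40.3 CPM in DMSO and at 33.9, 31.9, 29.8 and 31.6 CPM in E64d. DMSO replicate 2 was far above the other controls, yet the lowest control was still above the highest treated library. Its log2 fold change was −0.49 ± 0.12 (adjusted p = 0.0301 by edgeR) and −0.34 without DMSO replicate 2, where it still passed. The call was lost without DMSO replicate 3 or any of the E64d replicates (adjusted p up to 0.0959). The log2 ratio of slc7a6 to slc7a6os rose from 0.25 ± 0.25 to 0.86 ± 0.10 (2-sided exact permutation test, p = 0.0286; adjusted p = 0.162). The strand setting of the counting is not given in the sources used here, and whether any reads were counted for both slc7a6 and slc7a6os is not known. RefSeq places the pair as direct neighbours with no overlap of their spans on the assembly GRCz12tu, which is not the build of the counts.

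**Figure D3:**
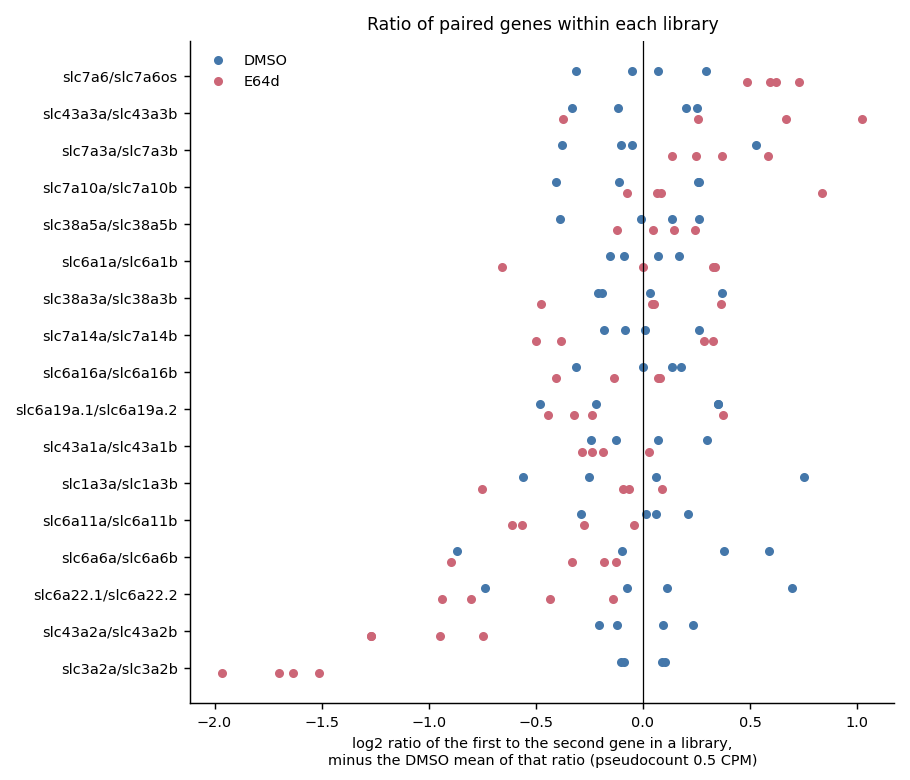
Log2 ratio of the first to the second gene of each of 17 pairs in every library, shown relative to the DMSO mean of that pair (horizontal axis, 0.5 CPM added to both genes); blue points are DMSO and red points E64d libraries. Groups are separate for slc3a2a/slc3a2b, slc43a2a/slc43a2b and slc7a6/slc7a6os and overlap in the other 14 pairs. The pairs slc3a2a/slc3a2b and slc7a6/slc7a6os were added by choice to 15 pairs of members matched by name.

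Compared within replicate numbers, the ratio differed with one sign in all 4 pairs of libraries for 6 of the 17 gene pairs. With no difference between groups, a gene pair would do so with a probability of 0.125. The 6 include slc3a2a/slc3a2b and slc7a6/slc7a6os, which were added by choice. Besides the 3 with separate groups these were slc6a22.1/slc6a22.2 (lower in E64d by 0.07 to 0.86 on the log2 scale), slc6a11a/slc6a11b (lower by 0.06 to 0.63) and slc7a3a/slc7a3b (higher by 0.05 to 0.51). The permutation tests of these ratios shuffle all 8 libraries and leave the pairing out. A paired exact test over 4 pairs cannot go below p = 0.125, so none was run.

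Of the sodium-coupled carriers of small neutral amino acids, slc38a7 fell and the other 10 did not pass. In mammals slc38a7 encodes SNAT7, which releases glutamine and asparagine from lysosomes, where proteases free them from protein. It stood at 57.5, 55.9, 53.8 and 50.9 CPM in DMSO and at 35.2, 31.9, 38.3 and 30.3 CPM in E64d. The pools of each group lay close together and the groups were far apart. The mean went from 54.5 ± 2.83 to 33.9 ± 3.58 CPM (log2 fold change −0.68 ± 0.09, adjusted p = 4.81e-04 by edgeR), and the gene was lower under all 16 alternative settings (log2 fold changes of −0.75 to −0.60).

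slc38a9, the lysosomal arginine sensor that reports to the growth kinase mTORC1 in mammals, stood at 17.2 ± 1.75 and 18.2 ± 1.25 CPM (log2 fold change 0.09 ± 0.11, adjusted p = 0.725). slc38a2, an adaptive carrier induced by amino acid shortage in mammals, stood at 65.2 ± 6.52 and 72.4 ± 5.42 CPM, with a 95% interval of −0.04 to 0.35. slc38a4 stood at 68.1 ± 12.4 and 74.7 ± 3.34 CPM, and slc38a10 at 71.4 ± 5.58 and 66.9 ± 2.55 CPM. In slc38a4 the lowest value was that of DMSO replicate 2, at 51.3 CPM.

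The glutamine carriers of the slc38a5 and slc38a3 type came in copies. slc38a5b stood at 90.0, 66.0, 84.8 and 85.1 CPM in DMSO and at 87.2, 95.9, 101 and 106 CPM in E64d (0.26 ± 0.10, adjusted p = 0.155 by edgeR). slc38a5a stood at 21.6 ± 2.77 and 27.7 ± 4.84 CPM (0.36 ± 0.13, adjusted p = 0.144), and with the block its adjusted p was 0.0287. Both copies had values above 0 and overlapping groups. slc38a3b stood at 43.8 ± 2.04 and 43.8 ± 6.17 CPM, and slc38a3a at 4.30 ± 0.959 and 4.23 ± 0.723 CPM. slc38a6 and slc38a8b had log2 fold changes of −0.01 ± 0.15 and −0.10 ± 0.13.

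The neutral exchangers of the slc1 family differed from each other. slc1a5 encodes ASCT2, which in mammals brings in glutamine in exchange for other neutral amino acids. It stood at 67.1, 75.0, 77.9 and 69.4 CPM in DMSO and at 86.7, 86.3, 102 and 82.8 CPM in E64d, without overlap. Its log2 fold change of 0.31 ± 0.08 was just over the threshold (adjusted p = 0.0514 by edgeR). The adjusted p was 0.0114 with the replicate block, 0.0144 by DESeq2, 0.0148 under library totals alone and 0.048 without DMSO replicate 2. The gene did not pass without any other single library (adjusted p up to 0.147). Nor did it pass with limma-voom (adjusted p = 0.0533) or with DESeq2's size factors in edgeR (adjusted p = 0.0525). It passed under 7 of the 16 alternative settings. slc1a4, the gene of the related exchanger ASCT1, stood at 80.4 ± 5.39 and 78.4 ± 7.61 CPM (−0.04 ± 0.08, adjusted p = 0.866), and its sign turned to 0.05 under library totals alone.

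No carrier of cationic amino acids passed the test. slc7a3a stood at 56.5, 87.7, 59.0 and 66.0 CPM in DMSO and at 84.4, 85.7, 70.5 and 77.9 CPM in E64d (a log2 fold change of 0.24 ± 0.13 by edgeR, adjusted p = 0.319). DMSO replicate 2 was the highest library of all 8, and without it the log2 fold change was 0.40 (adjusted p = 0.017). Without any other single library the log2 fold change was 0.17 to 0.30 and did not pass (adjusted p of 0.285 to 0.535). slc7a3b stood at 23.8 ± 2.78 and 22.5 ± 2.17 CPM, and slc7a1, the general CAT1 carrier of arginine and lysine, at 22.17 ± 3.68 and 25.8 ± 1.11 CPM. slc7a2, a carrier of the CAT2 type, had 3.80, 3.09, 5.40 and 3.59 CPM in DMSO and 1.42, 2.93, 2.49 and 2.10 CPM in E64d. All treated values of slc7a2 were below all controls, with a log2 fold change of −0.82 ± 0.27 that missed the threshold (adjusted p = 0.0938), against an adjusted p of 0.0446 with the block. slc7a4, slc7a14a and slc7a14b had log2 fold changes of −0.09, 0.04 and 0.23.

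The slc36 genes did not pass. slc36a1, the lysosomal carrier PAT1 of mammals, stood at 18.8, 12.6, 14.3 and 16.1 CPM in DMSO and at 21.5, 16.2, 18.5 and 18.9 CPM in E64d (0.28 ± 0.13, adjusted p = 0.268 by edgeR). DMSO replicate 1 reached into the range of the treated pools. slc36a4 stood at 11.5 ± 2.01 and 12.1 ± 1.36 CPM.

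In the slc6 family slc6a15 and slc6a6b rose and slc6a22.1 fell, while the other 19 members did not pass. slc6a15 encodes B0AT2, a sodium-dependent carrier of branched-chain amino acids and proline found in mammalian neurons. It stood at 2.34, 2.33, 2.27 and 2.59 CPM in DMSO and at 4.47, 3.72, 6.91 and 4.40 CPM in E64d. The controls were nearly equal, and every treated pool was higher, most of all E64d replicate 3. The log2 fold change was 1.03 ± 0.22 (adjusted p = 0.0172 by edgeR), on 74 to 85 counts in each DMSO library. It was 0.81 without E64d replicate 3 (adjusted p = 0.0598) and 1.01 without DMSO replicate 3 (adjusted p = 0.0501), and the call was lost without either.

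slc6a6b, a copy of the taurine transporter gene, stood at 25.3, 33.2, 31.7 and 29.7 CPM in DMSO and at 36.4, 42.3, 37.6 and 37.5 CPM in E64d. Its groups did not overlap, and its call was at the edge of the threshold (log2 fold change 0.36 ± 0.10, adjusted p = 0.0497 by edgeR). Without DMSO replicate 2 it passed at an adjusted p of 0.0253, and without any other single library it did not pass (adjusted p up to 0.14). Nor did it pass with limma-voom (adjusted p = 0.0512) or with DESeq2's size factors in edgeR (adjusted p = 0.0524). The other copy, slc6a6a, stood at 5.25 ± 1.77 and 5.04 ± 1.21 CPM, with a 95% interval of −0.65 to 0.53. The log2 ratio of the copies did not separate the groups (2-sided exact permutation test, p = 0.257).

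slc6a22.1 stood at 11.5, 8.39, 9.15 and 7.58 CPM in DMSO and at 6.25, 5.77, 6.49 and 5.71 CPM in E64d. The treated pools lay close together below all controls (log2 fold change −0.60 ± 0.16, adjusted p = 0.0409 by edgeR). The call was lost without DMSO replicates 1 or 3 or any single E64d replicate (adjusted p up to 0.128), under library totals alone (0.0846), with limma-voom (0.0555) and with no filter on low counts (0.0507). Its direct neighbour slc6a22.2 stood at 4.16 ± 1.23 and 4.23 ± 0.933 CPM. Reads that fit both neighbours could have been split or dropped, so the separate levels of slc6a22.1 and slc6a22.2 are uncertain, as are those of the neighbours slc6a19a.1 and slc6a19a.2.

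Transporters that clear neurotransmitters did not pass the test. slc6a9, the glycine transporter GlyT1 of glia, stood at 167, 138, 175 and 169 CPM in DMSO and at 173, 183, 211 and 193 CPM in E64d (a log2 fold change of 0.23 ± 0.09 by edgeR, adjusted p = 0.167). slc6a5, the glycine transporter of glycinergic neurons, stood at 10.9 ± 1.96 and 11.9 ± 1.44 CPM, and slc6a7, a proline transporter, at 15.7 ± 1.45 and 17.2 ± 1.32 CPM. The transporters for GABA (slc6a1a, slc6a1b, slc6a11a and slc6a11b) had log2 fold changes of 0.01 to 0.41, and those for noradrenaline (slc6a2) and serotonin (slc6a4a) had 0.20 and 0.38.

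slc6a8, the creatine transporter, stood at 80.8, 48.1, 66.0 and 78.6 CPM in DMSO and at 81.3, 72.6, 85.1 and 93.4 CPM in E64d. DMSO replicate 2 was far the lowest library. The gene passed with the replicate block (log2 fold change 0.30, adjusted p = 0.0393) and not without it (0.28 ± 0.14, adjusted p = 0.295). slc6a16b stood at 65.3 ± 4.92 and 74.9 ± 2.21 CPM, with groups that did not overlap (0.20 ± 0.07, adjusted p = 0.145), and it passed under library totals alone (adjusted p = 0.0315). Its copy slc6a16a stood at 17.5 ± 3.22 and 18.8 ± 2.83 CPM. slc6a14, slc6a17, slc6a18, slc6a19a.1 and slc6a19a.2 had mean levels of 0.548 to 3.99 CPM and did not pass.

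Of the glutamate transporters of the slc1 family, none passed, and slc1a3a and slc1a2b varied little between libraries while the other 4 varied more. slc1a3a, a copy of the glial transporter gene EAAT1, stood at 192, 185, 199 and 198 CPM in DMSO and at 203, 199.9, 191 and 202 CPM in E64d. Its groups overlapped, and its 95% interval of −0.09 to 0.17 on the log2 scale was among the narrowest of all members (adjusted p = 0.783 by edgeR). slc1a2b, a copy of the glial transporter gene EAAT2, stood at 31.0 ± 1.96 and 36.5 ± 2.89 CPM (0.24 ± 0.09, adjusted p = 0.144). slc1a1, slc1a3b, slc1a6 and slc1a9 had mean levels of 0.487 to 4.21 CPM and wide intervals.

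Of the marker lists for neurons, only that of monoamine neurons held a called gene. The summed level of 6 neuronal markers was 513, 359, 464 and 522 CPM in DMSO and 543, 528, 535 and 560.1 CPM in E64d, without overlap, and none of the 6 passed the test singly. Most of that difference lay in elavl3 (313 ± 71.8 and 383 ± 15.8 CPM, with overlapping groups). snap25a, stmn2a and gap43 had log2 fold changes of −0.01, 0.03 and −0.19, whereas the median over all 6 was 0.12. With the replicate block 1 of the 6 was called higher in E64d, where that fit called 4.69% of all genes higher. The 5 markers of monoamine neurons summed to 5.85 to 8.10 CPM in DMSO and 8.23 to 11.3 CPM in E64d. Most of the difference between the mean sums lay in tph1a, a gene of serotonin synthesis and the only 1 of the 5 that passed. It rose from 0.745 ± 0.160 to 2.16 ± 0.252 CPM (log2 fold change 1.53 ± 0.30, adjusted p = 0.0087 by edgeR). Markers of GABA and glycine neurons (25.7 to 36.8 and 28.95 to 32.8 CPM) and of radial glia (233 to 294 and 241 to 281 CPM) overlapped. Their part in the transporter values was not tested.

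Summed over its members, the slc6 family had more reads in every E64d library than in any DMSO library: 483, 417, 474 and 488 CPM in DMSO and 513, 521, 557 and 548 CPM in E64d. slc1 (369 to 402 and 402 to 425 CPM) and slc36 (26.1 to 27.8 and 29.05 to 35.2 CPM) were separate as well, slc1 by less than 1 CPM. These 3 sums were separate in the same direction under library totals and under DESeq2's size factors. The sums of slc38 (418 to 476 and 446 to 486 CPM), slc43 (664 to 787 and 538 to 692 CPM) and slc7 (298 to 340 and 284 to 317 CPM) overlapped. The mean of slc7 was lower in E64d by TMM and by size factors but higher under library totals. That mean by TMM, 312 CPM in DMSO and 299 CPM in E64d, includes slc7a6os. That entry is not a transporter gene, and it had 44.6 CPM in DMSO and 31.8 CPM in E64d. All 63 members together held 2348 ± 90.5 CPM in DMSO and 2355 ± 36.7 CPM in E64d by TMM. Under library totals they held 2280 ± 150 and 2425 ± 31.1 CPM, and the groups overlapped under both scalings. Without the slc43 family the sum by TMM was 1642 ± 49.1 CPM in DMSO and 1740 ± 33.8 CPM in E64d, without overlap. Sums weigh long and abundant transcripts most, and no test was made on them.

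**Figure D4:**
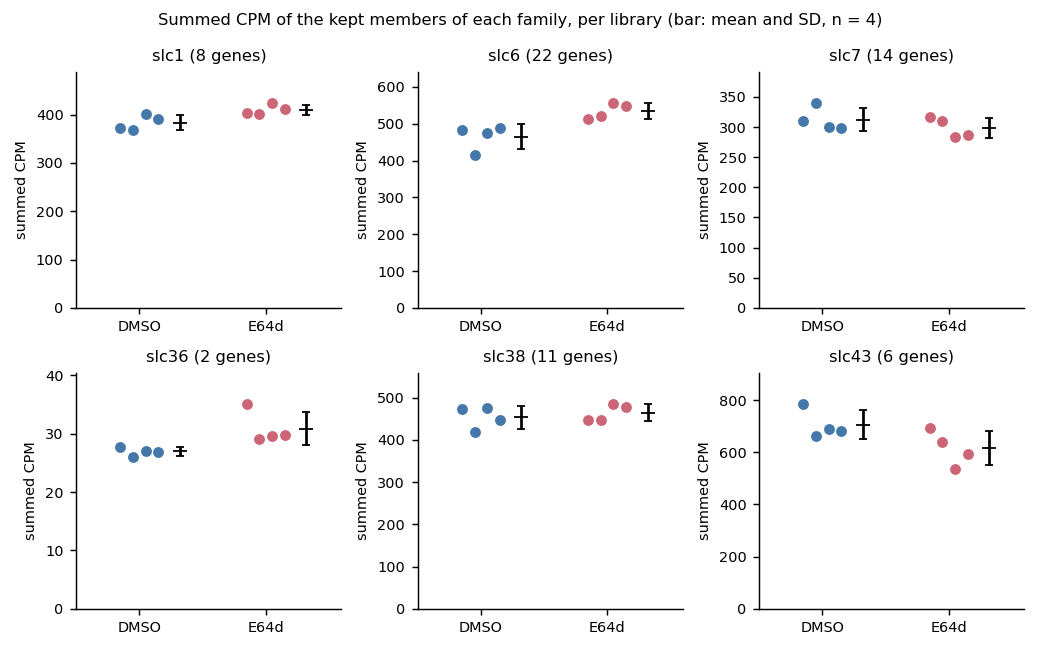
Summed CPM of the members of each family in every library (vertical axis, from 0; blue DMSO, red E64d; black bar mean ± SD of 4 libraries). The E64d libraries lie above all DMSO libraries for slc1, slc6 and slc36, and the groups overlap for slc7, slc38 and slc43. The slc7 panel includes slc7a6os, which is not a transporter gene.

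Of the 56 members that did not pass, 42 had values above 0 and 14 below, from −0.82 to 0.82. In 46 of them the 95% interval of the log2 fold change lay within 1 either way, so a change of 2-fold or more was outside it, and in 29 it lay within 0.5. The other 10 had mean levels of 0.538 to 3.10 CPM, where the spread between pools leaves a 2-fold change inside the interval. The median SD between pools was 14.9% of the mean in DMSO and 12.1% in E64d. Just inside the level for keeping a gene were slc1a6, slc6a18 and slc43a3a (0.538, 0.655 and 0.662 CPM), and just outside it slc7a8b, slc6a3 and slc1a7a (0.479, 0.456 and 0.451 CPM). Of the 12 names left out, 5 had enough counts to be tested and none of these was called.

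**Figure D5:**
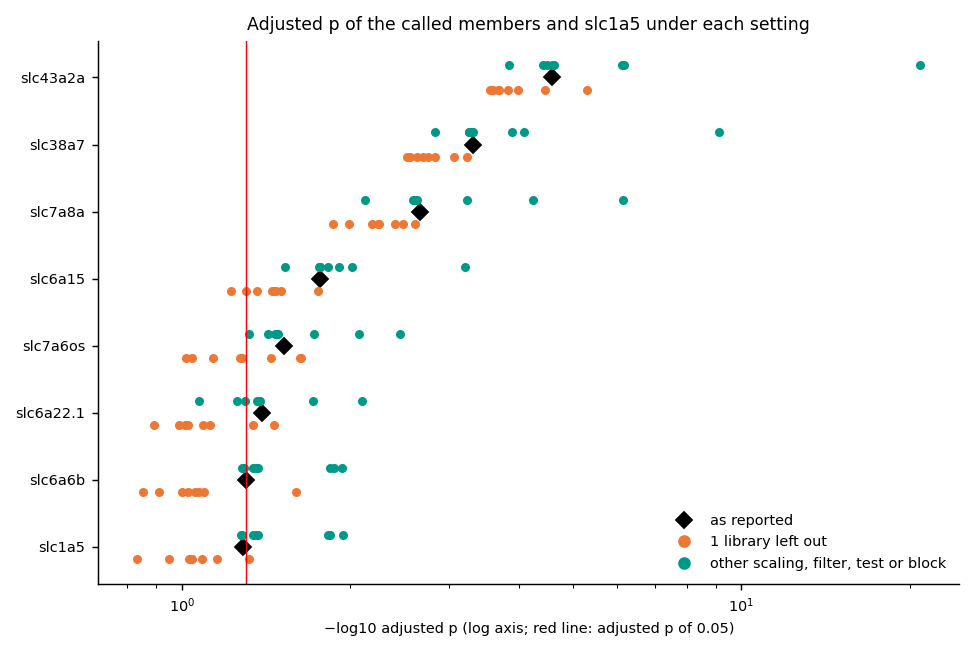
Adjusted p of the 7 called members and slc1a5 under each setting, as −log10 on a log axis (horizontal), with the reported fit as a black diamond, fits with 1 library left out in orange and other settings in green; the red line marks an adjusted p of 0.05. All points of slc43a2a, slc38a7 and slc7a8a lie to the right of the line, and those of the other genes lie on both sides.

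Other genes of amino acid transport and sensing were counted in 5 lists with 95 entries, of which 87 were tested, and 4 were higher and 4 lower in E64d, which is 9.2% of those tested beside 6.13% of all tested genes. Of 5 heavy chains and partner proteins, slc3a2a fell and slc3a1 stood near its control level (log2 fold change −0.02). Of 17 tested mitochondrial carriers of amino acids and related substrates, slc25a15a, an ornithine carrier gene, rose from 1.54 ± 0.357 to 3.60 ± 0.787 CPM (1.22 ± 0.26, adjusted p = 0.0159 by edgeR). slc25a38a, which supplies mitochondria with glycine for heme synthesis, fell from 8.50 ± 1.73 to 2.54 ± 0.869 CPM (−1.74 ± 0.25, adjusted p = 9.18e-04). None of 13 tested carriers of amino acids or peptides from other families and none of 8 tested vesicular neurotransmitter carriers passed, with medians of 0.05 and 0.06.

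Of 44 genes of the pathway by which amino acids signal to mTORC1, 3 rose and 2 fell (11.4%, where 6.13% of all tested genes were called), with a median of 0.04. The leucine sensor gene sesn2 rose, with 6.64 to 7.75 CPM in DMSO and 13.9 to 16.8 CPM in E64d (a log2 fold change of 1.104 ± 0.12 by edgeR, adjusted p = 1.19e-04). seh1l, a subunit shared by the nuclear pore and the GATOR2 complex that sestrins bind in mammals, fell from 97.1 ± 10.2 to 76.7 ± 2.55 CPM (−0.34 ± 0.08, adjusted p = 0.0295). The other called genes of the list were sesn1 and tfe3a, both higher, and sesn3, lower.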

How the data were processed

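Whole-embryo RNA was sequenced in 8 libraries, 4 per group. The deposited values are raw counts, 1 row per gene symbol. The submitters' processing notes name featureCounts 2.0.6, STAR 2.7.10b, Trim Galore 0.6.10, FastQC 0.12.1 and the build GRCz11; for annotation, strand setting and multi-mapping reads the treatment is not given in the sources used here. Another 6 columns that name no sample were left out. Of counts from 1 to 20, 75.9% to 80.7% were even, as when both mates of a pair are counted, so counts divided by 2 were an alternative. No step that marks duplicate reads is named in those notes, so counts cannot be taken as independent molecules.

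Groups, replicate numbers and columns came from the labels. The whole table was tested in edgeR 4.0.16 under R 4.3.3: filterByExpr at its defaults, TMM scaling, quasi-likelihood test, Benjamini-Hochberg adjustment over 22163 genes, threshold 0.05. Adjusted p-values are from that test unless another is named. A value after ± is the SD for CPM and for ratios of genes. For log2 fold changes it is the SE, taken as the size of the change over the square root of the test's F. CPM is on TMM-adjusted totals. The common biological coefficient of variation was 20%. Ratios of paired genes used a pseudocount of 0.5 CPM and exact permutation tests that leave the replicate pairing out. Of the 17 gene pairs, 15 were copies among the members, matched by name. The pairs slc3a2a/slc3a2b and slc7a6/slc7a6os were added by choice, and slc7a6os is not a copy of slc7a6. Both added pairs had the smallest p that the permutation test can give. The adjusted p-values of the ratios therefore depend on that choice and are lower with these pairs included. DESeq2 1.42.0 and limma 3.58.1 served as alternatives. Levels were not compared between genes, since no transcript lengths were used.

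The reported tests have no replicate block, and a fit with the block was an alternative. Replicate numbers met the criterion for pairing, a correlation over 0.1 in every same-numbered pair: deviations from the group means correlated at 0.134 to 0.429 across genes for same-numbered libraries and at −0.25 to 0.104 for others. What the number stands for is not stated in the labels. No pair of libraries agreed within sampling noise.

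Members and lists were chosen with earlier results of these data known. Of 95 companion entries 89 matched, 4 by a synonym in the RefSeq table of GRCz12tu. Named by rule were all called members, the 8 with the highest mean CPM and the highest of each family; other members were named to complete the families, after their values were seen. On simulated data for this comparison (21752 genes), edgeR recovered 40% of genes changed 1.5-fold, 68% at 2-fold, 96% of those changed 4-fold and 98% of those changed 8-fold, and 7.36% of its calls were false. The simulation changed a small share of genes, all above a minimum count. It had no replicate pairing and no scaling difference between groups, so its rates need not hold for these libraries.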

Additional observations from a re-analysis of the deposited data

Results flagged for a closer look

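Among the 16 members named by rule, 1 library stood far from the others of its group: slc7a6os had 57.5 CPM in DMSO replicate 2, where the other DMSO libraries held 38.9 to 41.7 CPM. In all 32 groups of 4 were looked at, and chance alone would set apart about 1 in 20. Without that library slc7a6os still passed, with a log2 fold change of −0.34 in place of −0.49.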

How the results depend on the processing

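The number of members higher in E64d was small and moved with most settings: 2 as reported, 1 with DESeq2's size factors in edgeR, 1 with limma-voom, 4 with DESeq2, 5 under library totals alone, 6 with the replicate block, and 0 to 4 over the fits without 1 library. The number lower was 5 as reported, stayed within 1.5 times of that under the other settings and was 3 to 5 without 1 library. It was 3 without DMSO replicate 3 or any E64d replicate. slc43a2a, slc38a7 and slc7a8a were called in all 16 alternative fits. The median log2 fold change was 0.13 and was 0.10 to 0.15 without 1 library. Only under library totals (0.21) did it move beyond the spread of that median between the E64d libraries (SD 0.04). The spread between DMSO libraries is not part of that SD. Of values not called, those of slc43a2b turned below 0 without DMSO replicate 4 (−0.02) or E64d replicates 1 or 2 (−0.0648 and −0.01), with 0.1205 as the highest value without 1 library. Under library totals slc43a1a turned to 0.0195 and slc1a4 to 0.0481, and slc1a4 lay between −0.105 and 0.00364 without 1 library. Over all genes the calls were 506 higher and 853 lower, 803 and 498 under library totals, 851 and 1358 with DESeq2, and 1040 and 1540 with the replicate block, which lost none of the 7 called members. The counts fell to 288 and 367 without E64d replicate 4. A minimum of 0.2 or 1 CPM for members changed no call. The cause of these differences was not tested.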
